A study of Homo sapiens with 9 samples.

Results

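The SLC25 family comprises the carriers of the mitochondrial inner membrane, and this account covers its members named SLC25A and a number. The deposited tables hold 54 such rows, of which 4 antisense rows and 2 pseudogene rows were left out, so that 48 carrier genes remained among the 26830 genes measured. Of these 48, 41 had enough reads to be tested and 7 did not. The rule uses gene names only. Poly(A)-selected RNA was sequenced from cells labelled NB4, a line derived from a human acute promyelocytic leukaemia, although its labelled cell type is acute monocytic leukaemia. Treatment lasted 48 h in every group. The 3 control libraries received DMSO, the solvent, another 3 received FB23 and the last 3 received FB23-2, and both compounds are labelled as FTO inhibition, FTO being a demethylase of N6-methyladenosine in RNA. No dose is given in the labels, and all groups share the 1 cell line, so nothing here separates a response of this line from a response of leukaemia cells in general. Nothing in the labels shows that replicates were grown as separate cultures, and the spread behind the p-values may thus be technical only.

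Carriers of this family are small proteins built of repeated pairs of membrane helices. They bind a substrate on one face of the inner membrane and release it on the other, usually in exchange for a counter-substrate. Through them ADP and phosphate reach the ATP synthase, citrate leaves for lipid synthesis, reducing equivalents cross as malate and aspartate, and amino acids, nucleotides, vitamins, glutathione and iron enter the matrix. In red cell precursors, mitoferrin-1 (SLC25A37) and the glycine carrier SLC25A38 supply iron and glycine for haem, a use for which the family is well known in blood.

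Library totals ran from 12360291 expected counts in FB23 replicate 1 to 38410750 in FB23 replicate 3. Promyelocyte genes went against the cell label: MPO and CTSG had 0 counts in all 9 libraries, which allows up to 0.0156 CPM, while 9 erythroid marker genes (among them HBG2, HBZ and KLF1) summed to between 27040 and 28624 TPM in DMSO. The myeloid surface protein CD33 stood at 44 TPM in DMSO. The erythroid sum was 30983 to 33326 TPM with FB23 and 3871 to 4440 TPM with FB23-2, and all 9 of its genes were lower with FB23-2 against DMSO. The summed level of 3 epithelial and fibroblast markers, most of it KRT8, was 300 to 303 TPM in DMSO, 341 to 361 TPM with FB23 and 1361 to 1446 TPM with FB23-2. That of 3 monocyte markers, mostly LYZ, was 4.14 to 5.29, 2.86 to 3.54 and 11.5 to 12.3 TPM, and the part of these shifts in the carriers' results was not tested. In bulk RNA, fewer cells of a type and less RNA per cell cannot be told apart. The cells are called by their label.

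The stretches that follow are the 160 bases before the RefSeq start of 7 carriers (assembly GRCh38.p14, 5′ to 3′ on the gene's strand). The flanks of SLC25A13, SLC25A26 (1 of its 3 listed starts), SLC25A33, SLC25A36 and SLC25A38 are shown because they hold the letters CACGTG, printed in capitals, and are 5 of 8 carriers that do. SLC25A46, SLC25A51 and the untested SLC25A31 also hold it and are not printed, so the 5 are examples chosen with their values known. This hexamer reads the same on both strands and is the core of the E-box, to which MYC with MAX, among other factors, can bind. SLC25A21 and SLC25A29 are shown because they were the members that fell and rose furthest with FB23-2, and neither stretch holds the hexamer.
SLC25A13 (chr7:96322099-96322258, minus strand): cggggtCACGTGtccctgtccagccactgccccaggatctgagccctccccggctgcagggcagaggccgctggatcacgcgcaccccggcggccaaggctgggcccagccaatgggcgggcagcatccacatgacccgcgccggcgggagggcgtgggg
SLC25A26 (chr3:66220841-66221000, plus strand): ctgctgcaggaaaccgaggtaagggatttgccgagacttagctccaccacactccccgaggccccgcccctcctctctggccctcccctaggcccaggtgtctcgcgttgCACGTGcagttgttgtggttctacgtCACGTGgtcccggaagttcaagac
SLC25A33 (chr1:9539305-9539464, plus strand): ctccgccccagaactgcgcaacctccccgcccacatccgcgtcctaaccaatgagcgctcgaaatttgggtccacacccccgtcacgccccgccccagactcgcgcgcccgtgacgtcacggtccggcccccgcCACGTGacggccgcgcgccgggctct
SLC25A36 (chr3:140941676-140941835, plus strand): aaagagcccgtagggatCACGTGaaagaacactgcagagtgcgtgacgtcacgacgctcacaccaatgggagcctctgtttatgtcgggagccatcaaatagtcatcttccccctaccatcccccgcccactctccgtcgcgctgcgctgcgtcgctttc
SLC25A38 (chr3:39383210-39383369, plus strand): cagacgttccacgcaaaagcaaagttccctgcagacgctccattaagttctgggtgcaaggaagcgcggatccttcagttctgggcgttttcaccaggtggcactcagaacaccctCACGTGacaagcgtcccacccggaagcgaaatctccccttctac
SLC25A21 (chr14:37172607-37172766, minus strand): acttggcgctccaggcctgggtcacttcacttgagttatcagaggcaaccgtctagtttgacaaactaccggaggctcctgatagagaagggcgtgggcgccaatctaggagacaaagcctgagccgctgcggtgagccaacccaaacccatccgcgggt
SLC25A29 (chr14:100306445-100306604, minus strand): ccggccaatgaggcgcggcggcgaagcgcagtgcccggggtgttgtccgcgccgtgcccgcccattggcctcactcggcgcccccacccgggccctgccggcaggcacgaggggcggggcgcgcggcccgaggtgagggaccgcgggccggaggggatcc
Entries were found for 40 of the 48 carriers, some with several starts. In the 250 bases before the start, 8 of these 40 genes held CACGTG, by at least 1 of their 51 entries (8 of 51, 15.7%), against 6.34% of the 35116 human entries. Other motifs were searched in the same windows, and the E-box had the largest excess among those searched. An NRF1 half-site was held by 9.8% of carrier entries against 6.89% of human entries, and a CRE core by 9.8% against 7.1%. A further motif was rarer in carriers, at 5.88% against 9.17%. None of these shares was tested. Of 7 tested carriers with CACGTG, 5 fell, 1 rose and 1, SLC25A51, was not called with FB23-2 (median log2 fold change -0.85). Of 27 tested carriers with an entry that lacks it, 16 fell, 10 rose and 1 was not called (median -0.21). Over all genes, 41.3% were called higher and 41.3% lower with FB23-2. The split of the carriers by CACGTG was not tested, and the letters are a description of the flank, not evidence of binding. MYC transcripts themselves fell by 1.83 ± 0.05 (SE) on the log2 scale with FB23-2. With FB23 the fall of MYC was smaller (log2 -0.30 ± 0.05). SLC25A33 and SLC25A36, which both carry pyrimidine nucleotides and both hold CACGTG, moved in opposite directions with FB23-2, as described below with their values.

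Levels were compared between genes in TPM, which is scaled for gene length. In DMSO, 5 carriers stood at 100 TPM or more. SLC25A6, an ADP/ATP carrier, was highest at 762 ± 25.8 TPM (SD, n = 3). SLC25A3, the phosphate carrier, stood at 667 ± 4.71 TPM, and SLC25A5, a further ADP/ATP carrier, at 491 ± 4.12 TPM. These 3 levels did not overlap between libraries, so their order held in all of them. SLC25A39, a glutathione carrier, had 292 ± 4.82 TPM and SLC25A1, the citrate carrier, 275 ± 9.59 TPM, with ranges of 287 to 297 and 268 to 286 TPM that lay close together. Another 24 members were at 10 to under 100 TPM, led by SLC25A37 at 97.5 ± 5 TPM, 10 were at 1 to under 10 TPM and 9 were under 1 TPM. SLC25A1, SLC25A3, SLC25A5 and SLC25A6 together made up 65.8 ± 0.0983% of the summed TPM of all 48 carriers in DMSO. This set is not the most abundant in DMSO, as SLC25A39 stood above SLC25A1 there. With FB23-2, SLC25A1 stood above SLC25A39 (means of 1096 and 151 TPM).

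**Figure D1:**
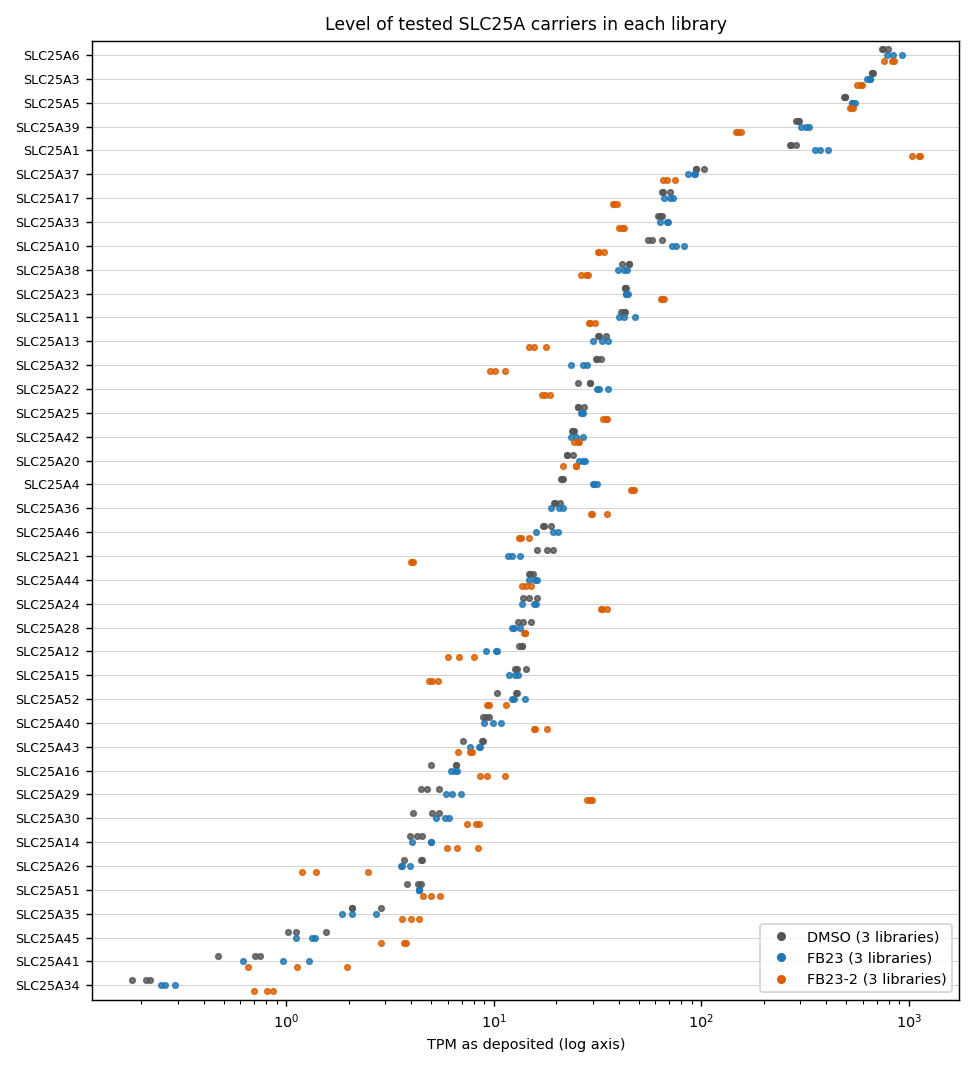
TPM as deposited (log axis) of tested SLC25A carriers (1 of the 41 is not shown), ordered by mean level in DMSO, with 1 point per library and 3 libraries per group. SLC25A6, SLC25A3 and SLC25A5 lead in DMSO, and SLC25A1 lies between 1038 and 1133 TPM in the FB23-2 libraries.

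Of the 9 members under 1 TPM in DMSO, 7 were too low to be tested. SLC25A31, the ADP/ATP carrier of the male germ line, and SLC25A48 had 0 counts in all 9 libraries. SLC25A2, an ornithine carrier, had 4 counts in total and SLC25A47 had 3. SLC25A27, an uncoupling-protein-like carrier, had 24 counts, SLC25A18, a glutamate carrier, 36 and SLC25A53 52. None of these 7 passed 0.53 TPM in any library.

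Changes were tested on TMM-scaled CPM, counts scaled to a common library size, with edgeR's quasi-likelihood test, and a carrier is called at a Benjamini-Hochberg adjusted p under 0.05 over all 13365 genes tested. With FB23-2 against DMSO, carriers changed in both directions and more were lower than higher. Of the 41 tested members, 14 rose, 24 fell and 3 were not called. Over all genes 82.6% were called, 41.3% higher and 41.3% lower, against 92.7% of the carriers. The median log2 fold change of the members was -0.23 against 0.01 for all genes, and the median absolute value 0.74 against 0.73. In CPM, 39 members had DMSO and FB23-2 libraries that did not overlap, against 84.2% of all genes. Changes of at least 1 on the log2 scale were seen for 14 members, 4 up and 10 down, where 36.8% of all genes reached that size. On the deposited TPM the split was 16 higher and 17 lower (limma on log2(TPM + 1)). Gene by gene, log2 fold changes lay higher there than with TMM, by a median of 0.24 over all genes. Upper-quartile factors raised them by a median of 0.17, and library totals by a median of 0.15. Small falls with FB23-2 are therefore relative to the TMM scaling.

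With FB23 against DMSO few carriers moved. Among the 41 tested, 5 rose (SLC25A4, SLC25A1, SLC25A10, SLC25A29 and SLC25A22), 4 fell (among them SLC25A21, SLC25A12 and SLC25A32) and 32 were not called, where 23.5% of all genes were called, 12.3% higher and 11.2% lower. The median log2 fold change was 0.04 against 0.00 for all genes, and 0 members changed by 1 or more, against 1.16% of all genes. The libraries of 14 members did not overlap, against 37.9% of all genes. Without DMSO replicate 3 or FB23 replicate 3, 3 members in place of 5 were called higher. Both comparisons share the DMSO libraries, so their values stand side by side in what follows and are no independent support for each other.

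**Figure D2:**
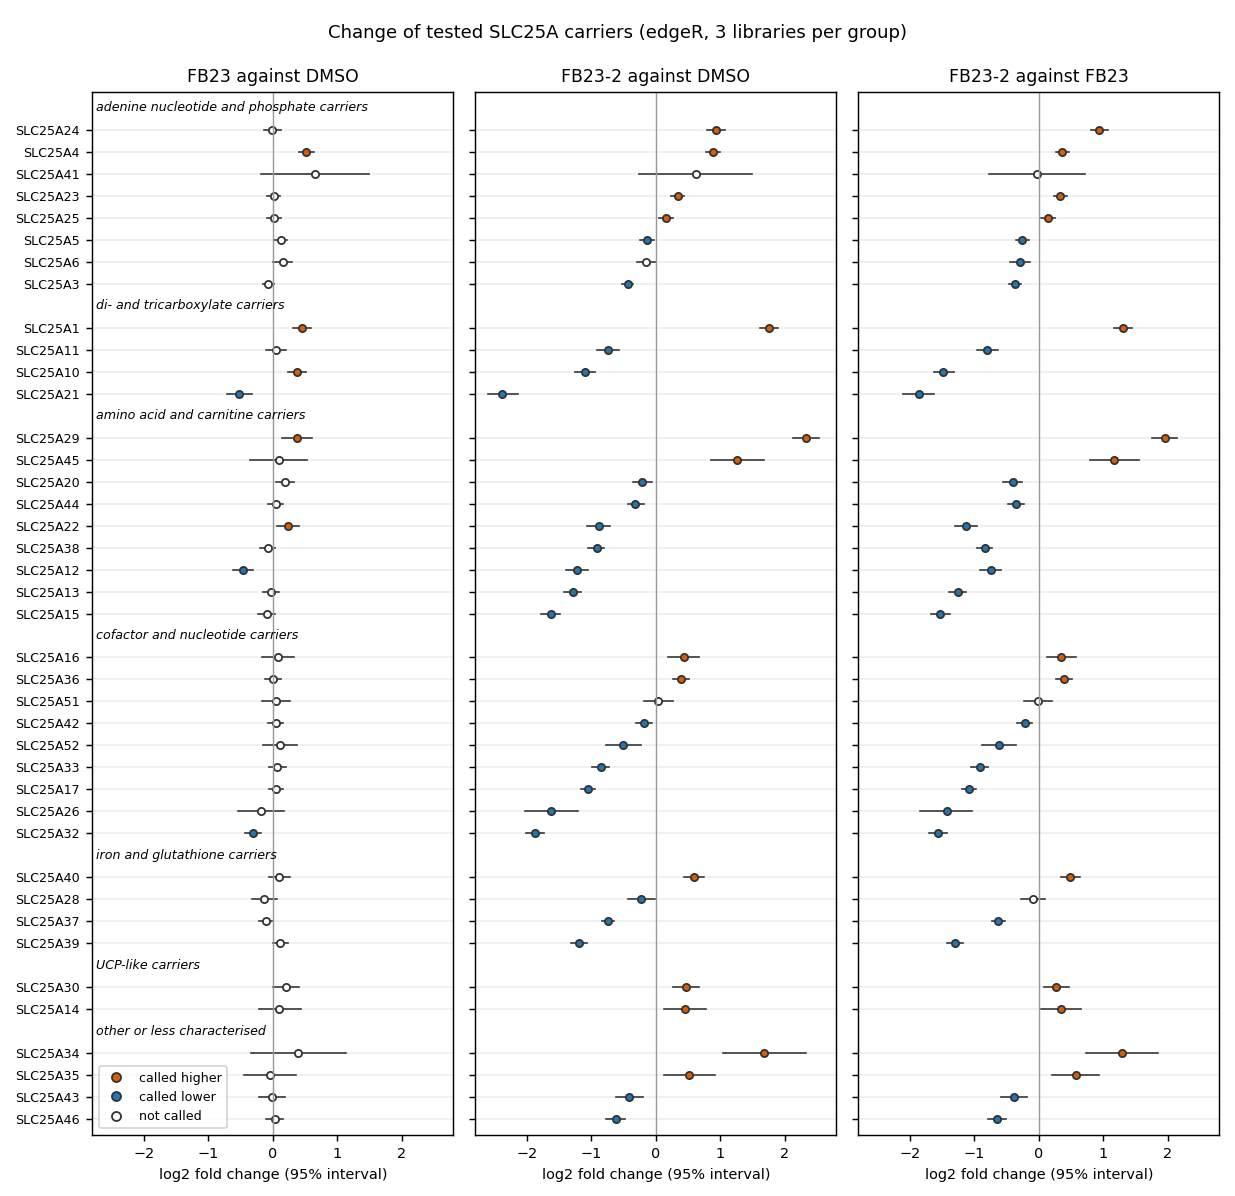
Log2 fold change of tested carriers (points, 1 of the 41 not shown) with its 95% interval (bars) in the 3 comparisons, grouped by substrate, with filled points for called members. In the middle panel SLC25A29 lies furthest to the right at 2.33 and SLC25A21 furthest to the left at -2.38.

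Of the di- and tricarboxylate carriers, SLC25A1 rose and the 3 others fell with FB23-2. SLC25A1 (chromosome 22, 19175575 to 19178830, GRCh38) exports citrate, the source of cytosolic acetyl-CoA for fatty acid and sterol synthesis. It was measured at 271, 263 and 279 CPM in the DMSO libraries, 336, 360 and 410 CPM with FB23 and 954, 955 and 829 CPM with FB23-2. The groups did not overlap and stood in 1 order, DMSO lowest and FB23-2 highest. It rose 1.36-fold with FB23 (log2 0.45 ± 0.07 SE, adjusted p = 0.000171) and 3.37-fold with FB23-2 (1.75 ± 0.07, adjusted p = 9.64e-14). Its share of the summed carrier TPM went from 8.24 ± 0.194% (SD, n = 3) in DMSO to 10.5 ± 0.447% with FB23 and 28 ± 0.727% with FB23-2, where it had the highest TPM of all members, at 1096 ± 50.3.

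SLC25A10, which exchanges malate or succinate for phosphate, moved in opposite directions with the compounds. Its levels were 73, 68.3 and 79.4 CPM in DMSO, 86.9, 92.4 and 105 CPM with FB23 and 34.8, 35.9 and 32.1 CPM with FB23-2. All FB23 libraries lay above DMSO and all FB23-2 libraries below. The rise with FB23 was 0.38 ± 0.07 (adjusted p = 0.00103) and with FB23-2 it fell by 1.10 ± 0.08 (adjusted p = 2.96e-10). SLC25A21 (chromosome 14, 36678431 to 37172866), which carries oxoadipate and related oxodicarboxylates of lysine breakdown, had 17.3, 18.9 and 20 CPM in DMSO, 11.9, 12.6 and 14.3 CPM with FB23 and 3.67, 3.62 and 3.46 CPM with FB23-2. It fell in both comparisons with no overlap. The log2 fold change was -0.52 ± 0.09 with FB23 (adjusted p = 0.000647) and -2.38 ± 0.11 with FB23-2 (adjusted p = 1.19e-12), a 5.20-fold fall. An antisense row, SLC25A21-AS1, overlaps this locus by name and stood at 0.39 ± 0.24 with FB23-2, not called (adjusted p = 0.147). Whether the counting used strand is not given in the sources used here. SLC25A11, the oxoglutarate carrier of the malate-aspartate shuttle, ran from 44.1 to 45.4 CPM in DMSO and from 24.7 to 28 CPM with FB23-2, where it fell by 0.75 ± 0.08. With FB23 its value was 0.05 (95% interval -0.11 to 0.21).

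Among the ADP/ATP carriers, which bring ADP into the matrix and send ATP out, SLC25A4 rose with both compounds. SLC25A5 and SLC25A6 were not called with FB23, and with FB23-2 against DMSO only SLC25A5 was called, as lower. SLC25A4 (chromosome 4, 185143241 to 185150382), the form typical of heart and muscle, was at 65.5, 64.3 and 65.1 CPM in DMSO, 90.7, 90.2 and 98.5 CPM with FB23 and 125, 122 and 112 CPM with FB23-2. The 3 groups did not overlap. It rose by 0.52 ± 0.05 with FB23 (adjusted p = 5.38e-06), the largest called rise among the members in that comparison, and by 0.89 ± 0.05 with FB23-2 (adjusted p = 4.69e-11). In TPM it remained the least abundant of the 3, with 1.67 ± 0.0147% of their sum in DMSO, 2.17 ± 0.0839% with FB23 and 3.37 ± 0.0714% with FB23-2 (SD, n = 3).

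SLC25A5, the form typical of dividing cells, had 369, 362 and 355 CPM in DMSO, 374, 387 and 417 CPM with FB23 and 310 to 344 CPM with FB23-2. Its value with FB23 was 0.12 (95% interval 0.02 to 0.22, edgeR adjusted p = 0.0889). It was called higher with library totals (0.14, edgeR adjusted p = 0.0248), with no low-count filter (0.15, 0.0279), without FB23 replicate 1 (0.15, 0.0383) and on TPM (0.14, limma adjusted p = 0.0137). With FB23-2 it was called lower, at -0.14 ± 0.05 (adjusted p = 0.0173). That direction turned with upper-quartile factors (0.04), library totals (0.01) and TPM (0.11). On TPM SLC25A5 was called higher with FB23-2 (limma adjusted p = 0.00883), opposite to the main call. The call as lower was also lost without FB23-2 replicate 3 (-0.10, edgeR adjusted p = 0.0741) and with a minimum of 1 CPM in 3 libraries (-0.11, 0.0542). SLC25A6 had 638, 619 and 657 CPM in DMSO, 632, 690 and 794 CPM with FB23 and 603, 606 and 516 CPM with FB23-2. It was called in neither comparison with DMSO (0.15 with FB23, interval -0.00 to 0.30, and -0.15 with FB23-2, interval -0.30 to 0.00). With FB23 it was called without FB23 replicate 1 (0.22, edgeR adjusted p = 0.0233) and with no low-count filter (0.18, 0.0118). With FB23-2 it was called without FB23 replicate 1 (-0.15, adjusted p = 0.0309), FB23 replicate 3 (-0.14, 0.0222) or FB23-2 replicate 2 (-0.19, 0.0422), with no low-count filter (-0.18, 0.00343) and with only the 6 libraries compared (-0.14, 0.00869). Its sign there turned on TPM (0.09) and with upper-quartile factors (0.02). SLC25A3, which supplies phosphate to the ATP synthase, had 668, 656 and 645 CPM in DMSO, 612, 628 and 634 CPM with FB23 and 502, 474 and 473 CPM with FB23-2. It fell by 0.44 ± 0.04 with FB23-2, and its value with FB23 was -0.07 (interval -0.16 to 0.02).

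The ATP-Mg/phosphate carriers, which set the pool of adenine nucleotides in the matrix under control of calcium, rose with FB23-2. SLC25A24 had 34.3, 38.9 and 35.3 CPM in DMSO, 37, 37.7 and 33.6 CPM with FB23 and 70.1, 68.2 and 69 CPM with FB23-2, a rise of 0.93 ± 0.06. SLC25A23 was at 102, 100 and 99.4 CPM in DMSO and 129, 132 and 121 CPM with FB23-2 and rose by 0.34 ± 0.05. SLC25A25 was at 60.1, 58.9 and 62.4 CPM in DMSO and 67.8, 69.3 and 65 CPM with FB23-2, a rise of 0.16 ± 0.05 that did not pass without DMSO replicate 2 (0.13, edgeR adjusted p = 0.0523) or with no low-count filter (0.13, 0.0531). None of the 3 was called with FB23, where their values were -0.01, 0.01 and 0.01. SLC25A24 made up 17.7 ± 1.11% of the TPM of these 3 genes in DMSO and 25.4 ± 0.832% with FB23-2. The row SLC25A25-AS1, whose reads may not be told apart from those of SLC25A25 without strand, was lower with both compounds (log2 -1.22 ± 0.09 for FB23-2, -0.50 ± 0.08 for FB23). SLC25A41, a short form without calcium-binding domains, had 8 to 12 counts per DMSO library and was not called with FB23 (0.65 ± 0.40) or FB23-2 (0.62 ± 0.41), though without FB23-2 replicate 1 it was called (0.99, edgeR adjusted p = 0.0334).

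Of the 13 carriers of amino acids and carnitine, 9 were tested, and 2 rose and 7 fell with FB23-2. Over all genes 82.6% were called there, 41.3% higher and 41.3% lower. SLC25A29 (chromosome 14, 100291111 to 100306547), which carries arginine, lysine and other basic amino acids, was measured at 7.38, 8.25 and 6.79 CPM in DMSO, 9.26, 8.78 and 10.8 CPM with FB23 and 38.7, 39 and 34.8 CPM with FB23-2. The groups did not overlap. It rose 5.01-fold with FB23-2 (2.33 ± 0.10, adjusted p = 2.86e-13), the largest rise of any tested member. Its rise of 0.38 ± 0.11 with FB23 (adjusted p = 0.0208) did not pass without DMSO replicate 1 (0.37, edgeR adjusted p = 0.0694), DMSO replicate 3 (0.31, 0.0965) or FB23 replicate 3 (0.26, 0.118). SLC25A45 had 38, 37 and 51 counts in the DMSO libraries, 27, 82 and 107 with FB23 and 173, 125 and 78 with FB23-2, and in CPM it rose by 1.26 ± 0.19 with FB23-2.

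SLC25A15, which exchanges ornithine for citrulline in the urea cycle, fell furthest in this class. Its levels were 35.3, 35.5 and 39 CPM in DMSO, 34.0, 35.3 and 33 CPM with FB23 and 11.7, 11.9 and 11.9 CPM with FB23-2, a fall by 1.63 ± 0.07. The aspartate-glutamate carriers of the malate-aspartate shuttle both fell with FB23-2. SLC25A12, known as aralar, had 38.1, 37.1 and 35.8 CPM in DMSO, 27.2, 27.8 and 25.5 CPM with FB23 and 16, 14.1 and 17.7 CPM with FB23-2. It fell by 0.47 ± 0.07 with FB23 (adjusted p = 0.000314) and by 1.22 ± 0.08 with FB23-2. SLC25A13, known as citrin, had 68.9, 73.9 and 68 CPM in DMSO, 73.6, 69 and 65.4 CPM with FB23 and 27.2, 28.4 and 30.8 CPM with FB23-2. It fell by 1.29 ± 0.06 with FB23-2 and was not called with FB23, at -0.03 (interval -0.15 to 0.10). In TPM, SLC25A12 was 29.1 ± 1% of the pair in DMSO, 23.2 ± 0.806% with FB23 and 30.1 ± 1.96% with FB23-2, so that the FB23 libraries (22.3 to 23.9%) lay below those of both other groups.

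SLC25A22, a glutamate carrier, had 50.4, 42.9 and 49.3 CPM in DMSO, 51.7, 53.7 and 61.6 CPM with FB23 and 27.5, 25.6 and 23.3 CPM with FB23-2. With FB23-2 it fell by 0.89 ± 0.08. It rose by 0.24 ± 0.08 with FB23 (adjusted p = 0.0347), a call lost with the replicate number as a block (0.24, edgeR adjusted p = 0.0551) and without DMSO replicate 2 (0.17, 0.19), DMSO replicate 3 (0.27, 0.0592) or FB23 replicate 3 (0.16, 0.135). SLC25A44, a carrier of branched-chain amino acids, fell by 0.32 ± 0.06 with FB23-2, from 36.9 to 37.8 CPM in DMSO down to 28.8 to 30.8 CPM. That call was lost on TPM (-0.06, limma adjusted p = 0.358). SLC25A20, the carnitine-acylcarnitine carrier of fatty acid oxidation, stood at 25.7 to 28 CPM in DMSO and 21.3 to 24.4 CPM with FB23-2 and was called lower there (-0.21 ± 0.07, adjusted p = 0.0112). The call was lost with library totals (-0.06), with upper-quartile factors (-0.04) and without FB23-2 replicate 1 (-0.14, edgeR adjusted p = 0.118), and on TPM the sign turned (0.04).

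Carriers for haem synthesis fell with FB23-2 beside the erythroid markers named above, all 9 of which fell, none being at 0 in DMSO. The part of that fall in these results was not tested. SLC25A38, which brings in glycine for the first step of haem synthesis, ran from 54.5 to 60.2 CPM in DMSO, from 53.5 to 56.6 CPM with FB23 and from 29.6 to 31.9 CPM with FB23-2, a fall by 0.92 ± 0.06. SLC25A37, mitoferrin-1, had 358, 351 and 382 CPM in DMSO, 336, 342 and 329 CPM with FB23 and 212, 216 and 225 CPM with FB23-2. It fell by 0.74 ± 0.04 with FB23-2 (adjusted p = 4e-11). With FB23 its libraries all lay below those of DMSO, but the value of -0.11 ± 0.04 did not pass (adjusted p = 0.0695). It passed with DESeq2 size factors (-0.12, edgeR adjusted p = 0.0474) and with the DESeq2 Wald test (-0.12, DESeq2 adjusted p = 0.0384). SLC25A28, mitoferrin-2 of other tissues, had 11.8, 12.2 and 13.3 CPM in DMSO, 10.7, 10.7 and 12.2 CPM with FB23 and 11, 10.7 and 10.1 CPM with FB23-2. It was called lower with FB23-2 (-0.23 ± 0.09, adjusted p = 0.0368), but that call was lost in 10 of 19 other fits and its sign turned on TPM (0.01). Among those fits were those without DMSO replicate 3 (-0.18, edgeR adjusted p = 0.121), FB23-2 replicate 1 (-0.24, 0.0644), FB23-2 replicate 2 (-0.23, 0.0636) or FB23-2 replicate 3 (-0.20, 0.0918). In TPM, mitoferrin-2 made up 12.5 ± 0.324% of the pair in DMSO and 16.9 ± 1.01% with FB23-2.

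The glutathione carriers moved apart with FB23-2. SLC25A39 (chromosome 17, 44319625 to 44324870) had 286, 276 and 270 CPM in DMSO, 292, 283 and 323 CPM with FB23 and 124, 126 and 113 CPM with FB23-2, a fall by 1.19 ± 0.06 (adjusted p = 1.48e-12). SLC25A40 (chromosome 7, 87833568 to 87876357) had 18.8, 19.6 and 18.9 CPM in DMSO, 20.1, 22.2 and 19.2 CPM with FB23 and 28.6, 27.8 and 30.3 CPM with FB23-2, a rise by 0.59 ± 0.08 (adjusted p = 1.03e-06). Neither was called with FB23 (0.11 with interval -0.00 to 0.23, and 0.10 with interval -0.06 to 0.26), though SLC25A39 was with no low-count filter (0.14, edgeR adjusted p = 0.0462). SLC25A40 made up 3.03 ± 0.124% of the TPM of the pair in DMSO and 9.82 ± 0.978% with FB23-2.

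Among the 10 carriers of cofactors and nucleotides, 2 rose, 7 fell and 1 was not called with FB23-2. That is 90% called beside 82.6% of all genes, where 41.3% were higher and 41.3% lower. SLC25A32, which carries folate and FAD, fell furthest: it had 69.3, 64.3 and 64.5 CPM in DMSO, 53.9, 57 and 49.6 CPM with FB23 and 18.2, 17.0 and 18.9 CPM with FB23-2. The groups did not overlap. It fell by 0.31 ± 0.06 with FB23 (adjusted p = 0.00188) and by 1.87 ± 0.07 with FB23-2 (adjusted p = 4.79e-14). In GENCODE 29, 87.9% of the 50-base words of SLC25A32 recur in transcripts of other genes. So do 59.3% of those of SLC25A10 and 20.7% of those of SLC25A33. The annotation used for counting is not named, so these counts are uncertain to an unknown extent. SLC25A26, which brings S-adenosylmethionine, the methyl donor, into the matrix, had 130, 113 and 125 counts in DMSO, 74, 186 and 259 with FB23 and 54, 34 and 57 with FB23-2. In CPM it fell by 1.62 ± 0.19 with FB23-2 and was not called with FB23 (-0.19, interval -0.54 to 0.17).

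SLC25A17, a peroxisomal carrier of coenzyme A and related nucleotides, had 98.4, 103 and 95.1 CPM in DMSO, 104, 102 and 99.5 CPM with FB23 and 48.6, 49.7 and 44.8 CPM with FB23-2. It fell by 1.05 ± 0.05 with FB23-2, and its value with FB23 was 0.04 (interval -0.06 to 0.15).

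The pyrimidine nucleotide carriers, which supply mitochondrial DNA and RNA synthesis, changed in opposite directions with FB23-2. SLC25A33 (chromosome 1, 9539482 to 9585179) had 51.7, 51.5 and 52.7 CPM in DMSO, 54.5, 51.2 and 57.7 CPM with FB23 and 29.4, 29.8 and 26.8 CPM with FB23-2, a fall by 0.85 ± 0.06. SLC25A36 (chromosome 3, 140941830 to 140980961) had 68.5, 63.7 and 62.8 CPM in DMSO, 67.7, 65.5 and 62.3 CPM with FB23 and 82.5, 81.8 and 91.2 CPM with FB23-2, a rise by 0.39 ± 0.06. In TPM, SLC25A36 made up 24.1 ± 0.967% of the pair in DMSO and 43 ± 2.96% with FB23-2. Neither was called with FB23 (0.07, interval -0.06 to 0.20, and -0.00, interval -0.12 to 0.12).

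SLC25A51 and SLC25A52, of which SLC25A51 is known to carry NAD+, are close copies. In GENCODE 29 transcripts, 27.2% of the 50-base words of SLC25A52 also occur in SLC25A51, and the deposited table lists for SLC25A51 a RefSeq transcript of the non-coding class, so their counts may be split wrongly. SLC25A51 had 11.5, 9.54 and 10.7 CPM in DMSO and 12.1, 10.8 and 9.36 CPM with FB23-2, was called in neither comparison with DMSO and had a value of 0.03 with FB23-2 (interval -0.19 to 0.26), though on TPM it was called higher there (0.21, limma adjusted p = 0.0328). SLC25A52 had 7.99, 6.34 and 7.77 CPM in DMSO and 4.94, 4.97 and 5.71 CPM with FB23-2 and fell by 0.51 ± 0.13, a call lost on TPM (-0.23, limma adjusted p = 0.0545). SLC25A16 rose by 0.43 ± 0.12 with FB23-2. SLC25A42, a coenzyme A carrier, was called lower (-0.18 ± 0.06) from 51.6 to 52.2 CPM in DMSO down to 44.1 to 47.9 CPM, a call lost with library totals (-0.04) and upper-quartile factors (-0.01) and turned on TPM (0.06).

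The uncoupling-protein-like carriers SLC25A14 and SLC25A30 rose with FB23-2, by 0.45 ± 0.15 and 0.47 ± 0.10. The former ran from 3.76 to 4.39 CPM in DMSO and from 4.98 to 6.5 CPM with FB23-2, and its call was lost without FB23-2 replicate 3 (0.34, edgeR adjusted p = 0.0596). The latter ran from 10.6 to 13.8 and from 16.4 to 18.3 CPM. Of the less characterised members, SLC25A34 had 6, 8 and 7 counts in the DMSO libraries, 6, 18 and 20 with FB23 and 32, 29 and 22 with FB23-2, and in CPM it rose by 1.68 ± 0.31. SLC25A35 was called higher (0.52 ± 0.18), which did not pass when DMSO replicate 1 (0.45, edgeR adjusted p = 0.0635) or DMSO replicate 2 (0.43, 0.0725) was left out. SLC25A46, a protein of the outer membrane involved in mitochondrial shape, fell by 0.62 ± 0.07, and SLC25A43 fell by 0.41 ± 0.10, a call lost on TPM (-0.13, limma adjusted p = 0.208). None of these 6 was called with FB23.

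**Figure D3:**
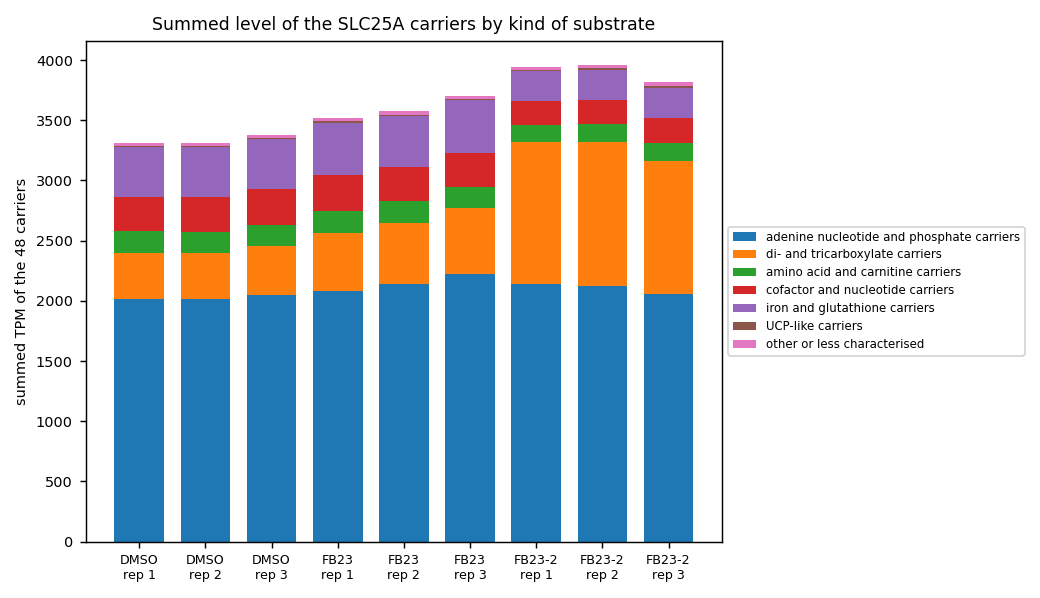
Summed TPM of the 48 carriers in each of the 9 libraries, stacked by kind of substrate. The di- and tricarboxylate segment, mostly SLC25A1, grows from 385 to 412 TPM in DMSO to 1103 to 1202 TPM with FB23-2.

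Summed over all 48 carriers, the deposited TPM was 3335 ± 38 in DMSO, 3600 ± 94 with FB23 and 3907 ± 79.5 with FB23-2 (SD, n = 3), and the libraries of the 3 groups did not overlap (3313 to 3379, 3522 to 3705 and 3815 to 3961). The sum is led by few genes, and no test was run on it. SLC25A1 alone went from 275 to 1096 TPM between DMSO and FB23-2. On TPM the median of all tested genes was also higher with FB23-2 than in DMSO (log2 ratio of mean TPM plus 1, 0.20). On TPM, the scale of the sum, 16 carriers were called higher and 17 lower with FB23-2 (limma). On the TMM scale the median log2 fold change of the carriers was -0.23. The higher sum with FB23-2 is thus no general rise of the carriers. The di- and tricarboxylate class went from 394 ± 15.4 to 1162 ± 51.9 TPM between DMSO and FB23-2, the iron and glutathione class from 413 ± 1.97 to 251 ± 3.8 TPM, the cofactor and nucleotide class from 289 ± 3.56 to 204 ± 5.41 TPM and the amino acid and carnitine class from 176 ± 1.13 to 144 ± 3.55 TPM. The adenine nucleotide and phosphate class, at 2026 ± 18 and 2104 ± 41.6 TPM, remained the largest.

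A direct comparison of the compounds at the same time asked which carriers differed between them. Of the 41 tested, 14 were higher and 24 lower with FB23-2 than with FB23, and 3 were not called, where 81.5% of all genes were called, 40.4% higher and 41.1% lower. Libraries of the compounds did not overlap for 38 members, against 81.2% of all genes, and 13 members differed by at least 1 on the log2 scale, against 32.2%. Doses are not in the labels, so a difference may be one of dose. SLC25A29 was 3.86-fold higher with FB23-2 (log2 1.95 ± 0.09, adjusted p = 1.06e-12) and SLC25A1 2.47-fold higher (1.30 ± 0.07). SLC25A45 and SLC25A34 were higher by 1.17 ± 0.18 and 1.29 ± 0.27. SLC25A21 was 3.64-fold lower (-1.86 ± 0.11), SLC25A32 2.96-fold lower (-1.57 ± 0.07) and SLC25A15 2.89-fold lower (-1.53 ± 0.07). SLC25A10, which rose with FB23 and fell with FB23-2, was 2.78-fold lower (-1.48 ± 0.07), and SLC25A22, also called in opposite directions, 2.19-fold lower (-1.13 ± 0.08).

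SLC25A4, which rose with both, was higher with FB23-2 by 0.36 ± 0.05, whereas SLC25A5 (-0.26 ± 0.05) and SLC25A6 (-0.30 ± 0.07) were lower. The calls of SLC25A5 and SLC25A6 were lost with upper-quartile factors (-0.09 and -0.13) and on TPM (-0.03 and -0.07). The higher level of SLC25A14 with FB23-2 (0.35 ± 0.15) was lost with no low-count filter (0.29, edgeR adjusted p = 0.111), with the replicate block (0.35, 0.0513) and without FB23 replicate 3 (0.27, 0.139), FB23-2 replicate 2 (0.36, 0.0546) or FB23-2 replicate 3 (0.24, 0.164). That of SLC25A30 (0.27 ± 0.09) was lost without FB23-2 replicate 2 (0.22, edgeR adjusted p = 0.0634), as was that of SLC25A25 (0.14 ± 0.05, then 0.12, 0.0561). The latter was also lost with no low-count filter (0.08, edgeR adjusted p = 0.231). The 3 members not called were SLC25A28, at -0.09 (95% interval -0.28 to 0.10), SLC25A51, at -0.02 (-0.23 to 0.20), and SLC25A41, at -0.03 (-0.77 to 0.71), and only for the last does the interval reach changes of more than 0.28.

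Other genes of mitochondrial transport were read from the same fit. Carrier proteins are made in the cytosol and enter through the TOM complex of the outer membrane, the small TIMM chaperones of the space between the membranes and the TIM22 complex. Of 16 genes of this route, all 16 fell with FB23-2 on the TMM scale (median log2 fold change -1.42, against 0.01 for all genes), where 41.3% of all genes fell. With FB23, 1 rose and 5 fell, where 12.3% of all genes rose and 11.2% fell. TOMM40, the channel of the outer membrane, fell with FB23-2 (log2 -2.83 ± 0.06) and with FB23 (-0.29 ± 0.05). The chaperone TIMM10 stood at -2.66 ± 0.09 and -0.37 ± 0.08, both called. AGK, a lipid kinase that is also a TIM22 subunit, fell by 0.19 ± 0.06 with FB23-2 on that scale, while its deposited TPM was 25 ± 1 in DMSO and 26.1 ± 2.3 with FB23-2 (SD, n = 3), the opposite direction. It was the gene that rose with FB23, by 0.24 ± 0.06.

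In the list of 19 other mitochondrial transporters and channels, 6 rose and 9 fell with FB23-2, so that 78.9% were called against 82.6% of all genes. With FB23, 6 rose and 1 fell, which is 36.8% against 23.5%. MPC2, a subunit of the pyruvate carrier, rose by 1.26 ± 0.06 with FB23-2 while its partner MPC1 fell by 0.55 ± 0.09. SFXN4, of the sideroflexin family, fell by 2.54 ± 0.08. Of 4 tested carrier-family genes with other symbols, MTCH2, an insertase of the outer membrane, fell by 1.46 ± 0.07, MTCH1 rose by 0.45 ± 0.06, and UCP2 (-0.08 ± 0.06) and UCP3 (0.32 ± 0.28) were not called with FB23-2.

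Enzymes that use the substrates of SLC25A1, SLC25A12 and SLC25A13 had 5 of 14 higher and 9 lower with FB23-2, where 82.6% of all genes were called. With FB23, 3 were higher and 0 lower, which is 21.4% called and near the 23.5% of all genes. ACLY, which splits the exported citrate, rose by 1.55 ± 0.04 with FB23-2, and the malate-aspartate shuttle enzymes MDH2, GOT2 and GOT1 fell by 1.51 ± 0.05, 1.42 ± 0.05 and 1.30 ± 0.05. Of 10 enzymes of mitochondrial folate, S-adenosylmethionine and pyrimidine use, 2 rose and 8 fell with FB23-2, against 82.6% of all genes called. With FB23, 1 rose and 5 fell, against 23.5% of all genes called. DHODH, the pyrimidine enzyme of the inner membrane, fell by 3.38 ± 0.11 and MTHFD1L, of mitochondrial folate metabolism, fell by 2.16 ± 0.05, while TK2, the mitochondrial thymidine kinase, rose by 1.39 ± 0.08. In the list of 10 mitochondrial haem and iron-sulphur genes, 2 rose and 8 fell with FB23-2, beside the same 82.6% of all genes. With FB23, 1 rose and 2 fell, which is 30% called beside 23.5% of all genes. ALAS1, the first haem enzyme of all tissues, rose by 1.32 ± 0.06, and its erythroid counterpart ALAS2 fell by 1.04 ± 0.06, beside the erythroid markers, of which it is 1. These counts are on the TMM scale. ME1, MTHFD2 and ISCU were called lower with FB23-2 on it (log2 -0.18, -0.23 and -0.16), while their mean deposited TPM was higher with FB23-2 (18.3, 189 and 32.4) than in DMSO (17.4, 187 and 30.5).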

How the data were processed

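RNA was poly(A)-selected and made into directional libraries, per the labels' protocols. Each deposited table gives for 26830 genes an expected count by RSEM (1.2.31 on GRCh38, per the submitters' processing notes). The deposited TPM is scaled by the authors for length and library total, and the deposited FPKM was not used. No source used here names the aligner, the annotation or the strand setting. Each gene has 1 listed transcript of constant length, so the planned reading of transcript length could not be made.

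Expected counts were rounded and tested with edgeR 4.0.16 (R 4.3.3) after filterByExpr (minimum count 10, minimum total 15), scaled by TMM, in a quasi-likelihood fit of 3 group means over all 9 libraries. P-values are two-sided and adjusted by Benjamini and Hochberg over 13365 genes, and calls are at 0.05. Intervals are 95%. A gene with 0 counts is given a limit of 3 counts over the 9 libraries, for counting error only. Alternatives used DESeq2 1.42.0, limma 3.58.1 (log2 of TPM plus 1), other scalings and filters, the 6 libraries compared, the replicate block and each library left out. The fits were tested on simulated data. The members, lists and rule for named genes were chosen with earlier results of these data known. That rule names every member and the extreme called genes of other lists. Library values are for members with changes of at least 1, the leading FB23 calls, the 5 most abundant and the related sets. The promoter motifs and the word search were chosen after seeing these results. Single results of 1 carrier and of 1 gene of another list are not reported here, and both remain in the counts.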

Additional observations from a re-analysis of the deposited data

How the results depend on the processing

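Of the counts of carriers called, 1 moved by more than 1.5 times: the 5 called higher with FB23 became 9 with no low-count filter and 3 to 7 with 1 library left out. With 1 library left out, carriers called lower with FB23 numbered 3 to 4, those with FB23-2 against DMSO 12 to 15 higher and 22 to 25 lower, and those with FB23-2 against FB23 11 to 14 higher and 24 lower. Same-numbered libraries of DMSO and FB23 deviated from their group means with correlations of 0.0439, 0.0755 and 0.0589, those of DMSO and FB23-2 with 0.0856, 0.0257 and 0.0338, and those of FB23 and FB23-2 with 0.0194, -0.00157 and -0.185. The highest of these was 0.0856. The labels state no pairing, so the replicate numbers were not taken as pairs. With the replicate block, 4 carriers were called higher and 4 lower with FB23, 14 and 23 with FB23-2 against DMSO, and 13 and 24 between the compounds. Log2 fold changes whose sign turned are listed next, and the cause was not tested. For FB23 against DMSO, the sign turned with library totals for SLC25A24 (0.01), SLC25A36 (0.02) and SLC25A43 (0.00). On TPM, it turned for SLC25A24 (0.01), SLC25A36 (0.02) and SLC25A43 (0.00). With no low-count filter, it turned for SLC25A13 (0.01), SLC25A24 (0.03), SLC25A36 (0.03) and SLC25A43 (0.01). With only the 6 libraries compared, it turned for SLC25A36 (0.00). With the replicate block, it turned for SLC25A36 (0.00). With upper-quartile factors, it turned for SLC25A36 (0.00). Leaving out 1 library at a time turned the sign for SLC25A11 (-0.06 to 0.11), SLC25A13 (-0.07 to 0.02), SLC25A16 (-0.03 to 0.14), SLC25A23 (-0.02 to 0.03), SLC25A24 (-0.04 to 0.05), SLC25A25 (-0.01 to 0.04), SLC25A35 (-0.21 to 0.11), SLC25A36 (-0.03 to 0.04), SLC25A43 (-0.11 to 0.03), SLC25A45 (-0.04 to 0.28), SLC25A46 (-0.02 to 0.11) and SLC25A51 (-0.02 to 0.11) in FB23 against DMSO. For FB23-2 against DMSO, the sign turned with library totals for SLC25A5 (0.01). For FB23-2 against DMSO, the sign turned on TPM for SLC25A5 (0.11), SLC25A6 (0.09), SLC25A20 (0.04), SLC25A28 (0.01) and SLC25A42 (0.06). For FB23-2 against DMSO, the sign turned with upper-quartile factors for SLC25A5 (0.04) and SLC25A6 (0.02). Leaving out 1 library at a time turned the sign for SLC25A51 (-0.05 to 0.11) in FB23-2 against DMSO. For FB23-2 against FB23, the sign turned with a minimum of 1 CPM in 3 libraries for SLC25A51 (0.02). With DESeq2's Wald test, it turned for SLC25A41 (0.07) and SLC25A51 (0.01). With DESeq2 size factors, it turned for SLC25A51 (0.01). With library totals, it turned for SLC25A28 (0.04), SLC25A41 (0.09) and SLC25A51 (0.11). On TPM, it turned for SLC25A28 (0.14), SLC25A41 (0.17), SLC25A42 (0.00) and SLC25A51 (0.16). With the replicate block, it turned for SLC25A41 (0.06). With upper-quartile factors, it turned for SLC25A28 (0.08), SLC25A41 (0.13) and SLC25A51 (0.15). Leaving out 1 library at a time turned the sign for SLC25A41 (-0.44 to 0.34) and SLC25A51 (-0.10 to 0.06) in FB23-2 against FB23. Signs that turned for a called value were those of SLC25A5, SLC25A20, SLC25A28 and SLC25A42.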
